A study of Mus musculus with 6 samples.

Results

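Translation initiation and elongation factors are the proteins that bring the ribosome to the start codon of an mRNA and then carry it along the message. The genes encoding them were taken by symbol, as every gene whose symbol begins with Eif and a number from 1 to 6 or with Eef and 1 or 2, other than Eif2s3x and Eif2s3y. Of the 25239 gene symbols in the counts, 70 met this rule, and 62 of these had enough counts to be tested between genotypes. The rule reads names only and uses no measured value. RNA sequencing was performed on the hippocampus of male C57BL/6 mice, which were 6 to 8 weeks old, and each mouse gave 1 library. WT mice carried an intact maternal and paternal allele of Ube3a (Ube3a m+/p+, n = 3), while Ube3a m-/p+ mice carried an inactivated maternal allele and kept the paternal one (n = 3). Both groups therefore held an intact paternal allele. The Ube3a m-/p+ line is the mouse model of Angelman syndrome, a neurodevelopmental disease in which UBE3A, a ubiquitin ligase, is lost from neurons, where the paternal allele is silent. The inactive allele was inherited, so it was not limited to a stage or a cell type.

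Initiation begins when eIF2, loaded with GTP and the initiator tRNA, joins eIF1, eIF1A, eIF3 and eIF5 on the small ribosomal subunit. The cap-binding complex eIF4F (the cap-binding eIF4E, the scaffold eIF4G and the helicase eIF4A) then recruits this subunit to the mRNA. Elongation follows, with eEF1A delivering aminoacyl-tRNA, the eEF1B subunits reloading eEF1A with GTP, and eEF2 moving the ribosome by a codon. In neurons the phosphorylation of eIF2 alpha, the release of eIF4E from its binding proteins and the phosphorylation of eEF2 are known as switches of the protein synthesis that supports synaptic plasticity.

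Between 7293272 and 8675252 reads were counted on genes in WT libraries, and between 8871052 and 11314409 in Ube3a m-/p+ libraries. Ube3a was measured at 103.5, 140.7 and 151.0 CPM (counts per 1000000 gene counts of the library) in WT mice 1, 2 and 3, against 96.8, 82.9 and 80.6 CPM in Ube3a m-/p+ mice 1, 2 and 3. The genotypes did not overlap, and Ube3a fell by 0.59 on the log2 scale (SE 0.12, adjusted p = 0.0363 by edgeR's quasi-likelihood test). The fall was no longer called after a correction of each library for the GC content and length of transcripts (log2 fold change -0.20, adjusted p = 0.241), nor without WT mouse 2 or 3 or Ube3a m-/p+ mouse 2 or 3. The libraries differed in how expression related to GC content. Spearman's rho across genes, between the deviation of a library from the mean of all 6 and the GC content of the transcript, was 0.05, -0.51 and -0.57 in WT mice 1, 2 and 3, against 0.06, 0.53 and 0.53 in Ube3a m-/p+ mice 1, 2 and 3. Mice 1 of both genotypes thus lay near 0, and the other 4 libraries lay apart by genotype, so the estimate of each member described below is also given after the correction. In mice 2 and 3, genotype and this difference between libraries cannot be told apart. In mice 1 alone, a comparison of 1 library per genotype chosen after seeing the data, the log2 ratio of Ube3a was -0.10.

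Compared to WT mice, Ube3a m-/p+ mice showed 1 up-regulated and 1 down-regulated translation factor gene, Eef1d and Eif5a2. A gene was called where the adjusted p by edgeR was below 0.05 and the fold change above 1.2, and calls by DESeq2 are named as such. These 2 of 62 tested genes made up 3.23%, beside 2.01% called among all 14445 genes tested (1.02% higher and 0.99% lower). With an unadjusted p below 0.05, 17 of the 62 were counted, 8 higher and 9 lower in Ube3a m-/p+ mice, beside 24.6% of all genes (12.2% higher and 12.4% lower). The CPM of the genotypes did not overlap in 10 members that were higher and 7 that were lower in Ube3a m-/p+ mice, while among all genes 10.8% lay higher and 14.2% lower without overlap. On CPM scaled by the trimmed mean of M values (TMM) the same count was 10 higher and 3 lower, beside 1728 of all 14445 genes higher (12%) and 1867 lower (12.9%). As shares, 27.4% of the members had an unadjusted p below 0.05 and 27.4% did not overlap, both near the values of the whole transcriptome. The 62 genes had a median log2 fold change of 0.03, with 37 above 0 and 25 below, beside a median of 0.003 over all genes. The summed level of 4 neuronal markers did not overlap between genotypes either, at 4301 to 4813 CPM in WT mice against 3832 to 4110 CPM in Ube3a m-/p+ mice. Of these 4 markers 1 was higher and 3 were lower, with a median log2 fold change of -0.20, or 0.01 after the correction. The part of this sum in the values of the members was not tested. In bulk tissue, fewer cells of a type and less RNA per cell cannot be told apart, and this holds for each change given here. A p that misses the threshold does not show that a gene was expressed alike in both genotypes. For a single gene the smallest p of an exact permutation test over 3 against 3 mice is 0.1.

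**Figure D1:**
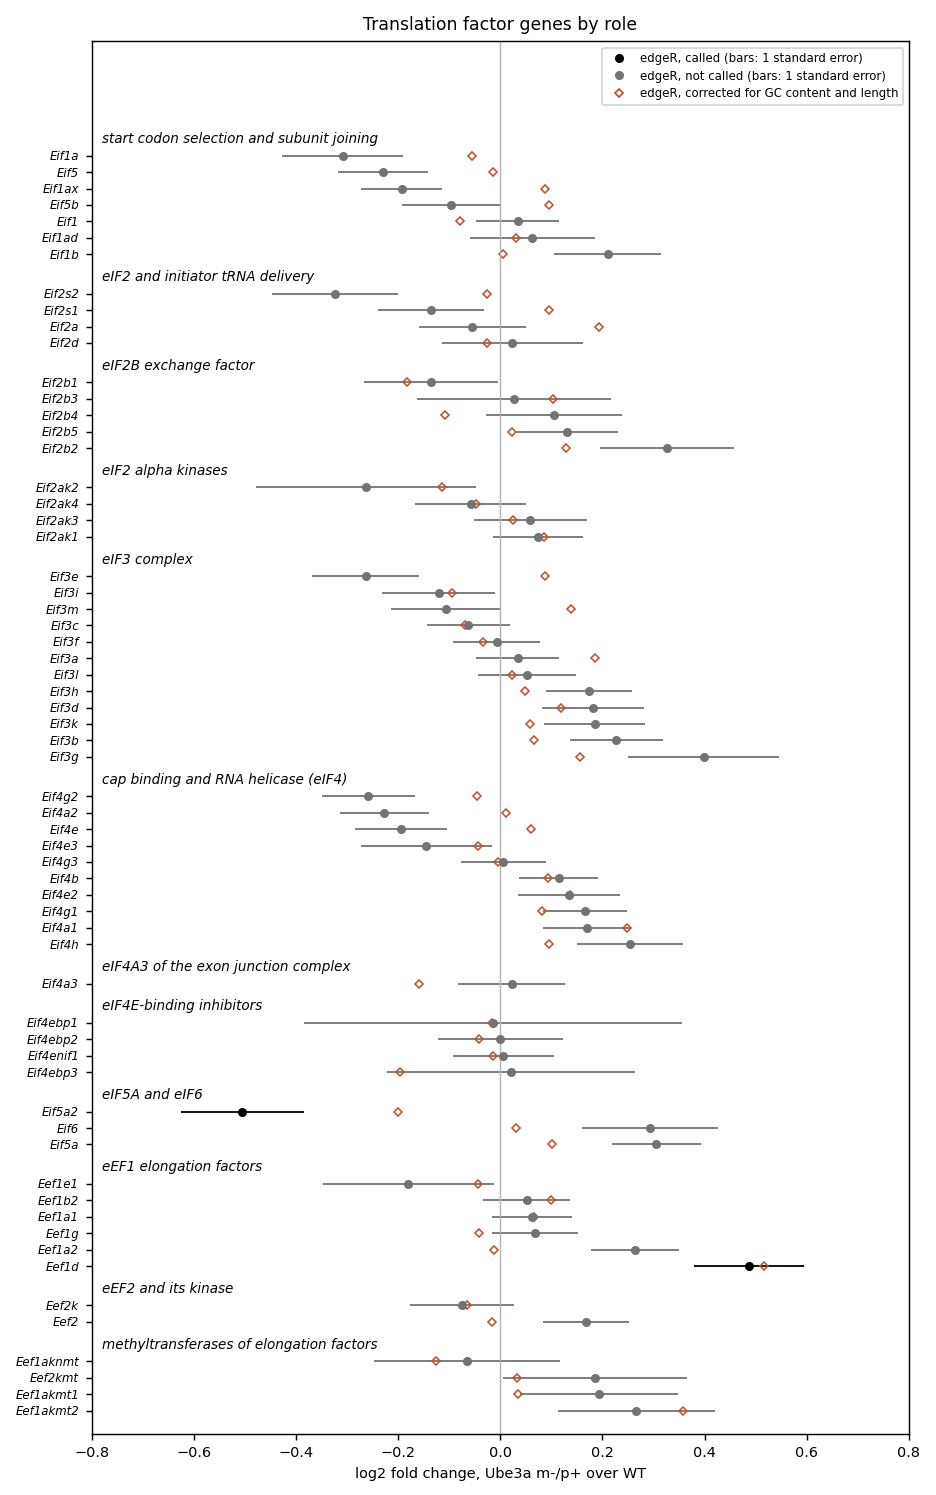
Log2 fold change (x axis) of the 62 tested translation factor genes (y axis, grouped by role), Ube3a m-/p+ over WT. Circles with bars are the edgeR estimate and 1 standard error, black where called, and open diamonds are the estimate after correction for GC content and length. Eif5a2 at -0.51 and Eef1d at 0.49 are the called genes, and only the diamond of Eef1d remains near its circle among these.

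The count of called members rested on single libraries, as did that of all genes. Without WT mouse 2, WT mouse 3 or Ube3a m-/p+ mouse 2, edgeR called 0 members and 0.0% of all genes, with 6, 6 and 8 members at an unadjusted p below 0.05. Without Ube3a m-/p+ mouse 3 it called 0 members, with 10 at an unadjusted p below 0.05, beside 0.0137% of all genes. It called 11 members without WT mouse 1, beside 17.6% of all genes, and 6 without Ube3a m-/p+ mouse 1, beside 12.5%. DESeq2 called 4 members (Eef1d, Eif5a2, Eif5a and Eef1a2), beside 6.69% of all genes. After the correction for GC content and length, Eef1d was the member called, beside 0.649% of the genes with a GC value, and 6 members had an unadjusted p below 0.05, beside 14.2%. Those 6 were Eef1d, Eif4a1, Eif3a, Eef1akmt2, Eif5a2 and Eif2a.

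The direction of a translation factor gene went with the GC content of its longest transcript. Members below 44% GC had a lower mean in Ube3a m-/p+ mice in 14 of 15 cases, with a median log2 fold change of -0.23. Members of 51% GC or more were higher in 23 of 25 cases, with a median of 0.17. Between these limits, which were chosen after the values were seen, 13 were higher and 9 lower, with a median of 0.03. Over all genes the medians of the same 3 classes were -0.25, -0.07 and 0.15, so the members followed the pattern of the whole transcriptome. Spearman's rho between GC content and log2 fold change was 0.73 over the 62 members and 0.62 over 14325 genes with a GC value, both across genes that share the same 6 libraries. After the correction rho was -0.10 over the members and 0.02 over all genes, and the medians of the 3 classes of members were 0.06, 0.00 and 0.02.

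**Figure D2:**
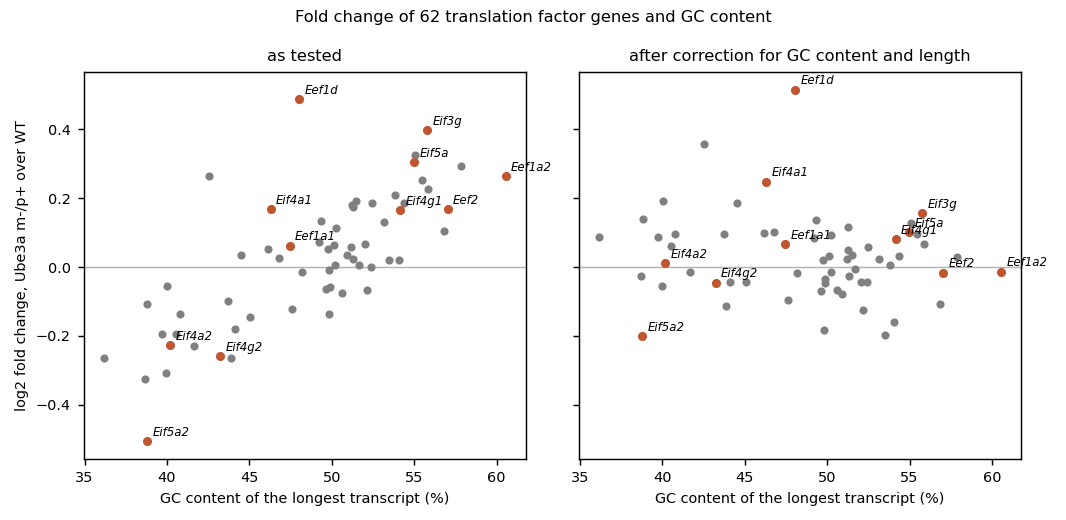
Log2 fold change, Ube3a m-/p+ over WT (y axis), against the GC content of the longest transcript in percent (x axis) for the 62 tested genes, as tested (left) and after correction for GC content and length (right). Each point is a gene, and the red points are labelled. On the left the points run from Eif3e at 36.2% GC to Eef1a2 at 60.6% GC with rho 0.73, and on the right rho is -0.10, with Eef1d still highest.

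The share of all gene counts held by the members was close to 1% in every library. Their counts made up 1.026%, 1.018% and 1.025% of gene counts in WT mice against 1.045%, 1.046% and 1.049% in Ube3a m-/p+ mice. The genotypes did not overlap (exact permutation p = 0.1, the smallest that 3 against 3 mice can give). The 5 genes with most counts, Eef1a1, Eef2, Eef1a2, Eif4g2 and Eif4a2, held 52.0% to 53.6% of the members' counts in every library. Without Eef1a2 and Eef2, left out after their values were seen, the share was 0.814%, 0.820% and 0.836% in WT mice against 0.828%, 0.811% and 0.814% in Ube3a m-/p+ mice, with overlap.

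Among the 6 eEF1 genes tested, Eef1d rose and the other 5 were not called. Eef1d encodes eEF1B delta, a subunit of the exchange factor that reloads eEF1A with GTP. It lies on chromosome 15 (GRCm38, 75894205 to 75909556, minus strand). Its level was 53.4, 40.8 and 45.3 CPM in WT mice 1, 2 and 3, against 62.5, 68.3 and 62.2 CPM in Ube3a m-/p+ mice 1, 2 and 3. All 3 Ube3a m-/p+ mice lay above all 3 WT mice. The log2 fold change was 0.49 (SE 0.11, adjusted p = 0.0387 by edgeR), or 1.40-fold. After the correction for GC content and length it was 0.52 (adjusted p = 0.0118), the highest of all members in that fit. Its transcript has 48.0% GC, close to the median of 49.9% over the members. The log2 ratio of mice 1 alone, a pair of libraries alike in their relation to GC content and chosen after seeing the data, was 0.23. Leaving out a mouse moved the estimate between 0.40 and 0.60, and the adjusted p between 0.0022 and 0.259. Exons of Eef1d overlap those of Naprt on the same strand over 277 bases.

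The other exchange subunits were measured near their WT level. Eef1b2, encoding the beta subunit, had a log2 fold change of 0.05 (SE 0.09), or 0.10 after the correction. Its 3 Ube3a m-/p+ mice at 84.1 to 88.2 CPM overlapped the WT mice at 83.8 to 85.2 CPM. Eef1g, encoding the gamma subunit, had a log2 fold change of 0.07 (SE 0.08), or -0.04 after the correction, with 188.0 to 198.2 CPM in Ube3a m-/p+ mice and 178.7 to 203.3 CPM in WT mice. Of its sequence, 64.3% of 50-base stretches also occur in other genes, so its counts are uncertain. Eef1e1, which encodes a scaffold protein of the aminoacyl-tRNA synthetase complex, was low at 10.8 to 18.5 CPM and gave a log2 fold change of -0.18 (SE 0.17), or -0.04 after the correction. The difference between Eef1d and these subunits was not tested.

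Eef1a1 and Eef1a2 encode the paralogs of eEF1A that deliver aminoacyl-tRNA to the ribosome, with Eef1a2 known as the form of mature neurons and muscle. Per kilobase of transcript, Eef1a1 was the more abundant, at 1129 ± 34.8 CPM per kb in WT mice beside 464.8 ± 37.9 for Eef1a2 (SD, n = 3). Eef1a1 was at 2039, 2080 and 1958 CPM in WT mice against 2171, 2075 and 2021 CPM in Ube3a m-/p+ mice. These values overlapped, with a log2 fold change of 0.06 (SE 0.08, adjusted p = 0.663), or 0.07 after the correction. Eef1a2 was at 1050, 964.5 and 891.9 CPM in WT mice against 1120, 1172 and 1156 CPM in Ube3a m-/p+ mice. The genotypes did not overlap for Eef1a2, yet its log2 fold change of 0.26 (SE 0.09) was not called by edgeR (adjusted p = 0.0842), while DESeq2 called it (adjusted p = 0.0342). Corrected for GC content and length, the estimate was -0.01 (adjusted p = 0.959). For Eef1a1, 60.6% of 50-base stretches occur in other genes, so part of its reads may not have been counted.

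A coding stretch around the GTP-binding loop is shown because the paralogs encode the same residues there from codon 10 to codon 24 while differing in codon use. It is read from GENCODE M21 transcripts on GRCm38 in the coding direction, and capitals mark the 10 of 45 bases that differ. Eef1a1 lies on chromosome 9 (78478449 to 78489151, minus strand), and G or C stands at 51.8% of the third codon positions. Eef1a2 lies on chromosome 2 (181147653 to 181157014, minus strand), with 72.6%.
Eef1a1: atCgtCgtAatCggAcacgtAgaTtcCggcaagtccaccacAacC
Eef1a2: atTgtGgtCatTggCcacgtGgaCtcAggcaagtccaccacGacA

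Neither eEF2, the factor that translocates the ribosome, nor its kinase was called at the RNA level. Eef2 was at 1076, 1016 and 1001 CPM in WT mice against 1060, 1178 and 1194 CPM in Ube3a m-/p+ mice. Ube3a m-/p+ mouse 1 lay among the WT mice, and the log2 fold change was 0.17 (SE 0.08, adjusted p = 0.230), or -0.02 after the correction. Eef2k, whose product phosphorylates and inhibits eEF2, was at 51.8, 48.3 and 53.3 CPM in WT mice against 44.1, 52.8 and 46.8 CPM in Ube3a m-/p+ mice. Its values overlapped, with a log2 fold change of -0.07 (SE 0.10), or -0.06 after the correction. Phosphorylation of eEF2 was not measured by these counts.

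The methyltransferases that modify eEF1A and eEF2 were represented by 6 genes, of which 4 were tested, at 9.13 to 15.8 CPM in any mouse, and none was called. The highest mean CPM was that of Eef1akmt1, a lysine methyltransferase of eEF1A, at 12.01, 10.4 and 13.4 CPM in WT mice against 14.2, 13.4 and 12.8 CPM in Ube3a m-/p+ mice. These overlapped, and the log2 fold change was 0.19 (SE 0.15), or 0.03 after the correction. Eef1akmt2 was the member of this group without overlap, at 9.57 to 10.7 CPM in WT mice and 11.7 to 12.6 CPM in Ube3a m-/p+ mice, with a log2 fold change of 0.27 (SE 0.15, adjusted p = 0.296), or 0.36 after the correction (adjusted p = 0.289).

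Of the 2 genes for eIF5A, Eif5a2 fell and Eif5a was not called. The factor eIF5A relieves ribosomes that stall on difficult peptide bonds, and it carries hypusine, a modified lysine made in no other protein. Eif5a2 was at 57.6, 64.1 and 77.2 CPM in WT mice 1, 2 and 3, against 49.5, 49.7 and 39.1 CPM in Ube3a m-/p+ mice 1, 2 and 3. All 3 Ube3a m-/p+ mice lay below all 3 WT mice. The log2 fold change was -0.51 (SE 0.12, adjusted p = 0.0427 by edgeR), or 0.705-fold. After the correction for GC content and length it was -0.20 and not called (adjusted p = 0.306). Its transcript has 38.8% GC, and the log2 ratio of mice 1 alone was -0.22. Leaving out a mouse moved the estimate between -0.60 and -0.39, and the adjusted p between 0.0041 and 0.251.

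Eif5a, the more abundant paralog at 143.5 ± 9.95 CPM per kb beside 13.2 ± 1.99 for Eif5a2 in WT mice (SD, n = 3), was measured in the opposite direction. It was at 222.0, 194.2 and 202.4 CPM in WT mice against 236.4, 248.8 and 269.4 CPM in Ube3a m-/p+ mice. The genotypes did not overlap, and the log2 fold change was 0.31 (SE 0.09), which missed the threshold by edgeR (adjusted p = 0.0632) and passed it by DESeq2 (adjusted p = 0.0286). It was 0.10 (adjusted p = 0.507) after the correction, with 55.0% GC in the transcript. Eif6, encoding a factor that keeps the large ribosomal subunit from joining too early, was at 25.9, 21.2 and 23.2 CPM in WT mice against 24.4, 32.8 and 27.7 CPM in Ube3a m-/p+ mice. Its genotypes overlapped, with a log2 fold change of 0.29 (SE 0.13, adjusted p = 0.190), or 0.03 after the correction.

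The coding stretch around the codon of the hypusine lysine, codon 50, is shown for both eIF5A genes, since the encoded residues are the same from codon 44 to codon 59 although the transcripts differ in GC content. Capitals mark the 7 of 48 bases that differ. Eif5a lies on chromosome 11 (69916714 to 69921958, minus strand) and has G or C at 56.1% of the third codon positions. Eif5a2 lies on chromosome 3 (28781276 to 28798846, plus strand) and has 44.2%.
Eif5a: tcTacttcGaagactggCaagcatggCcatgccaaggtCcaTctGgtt
Eif5a2: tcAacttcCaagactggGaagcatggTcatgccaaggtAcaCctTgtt

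**Figure D3:**
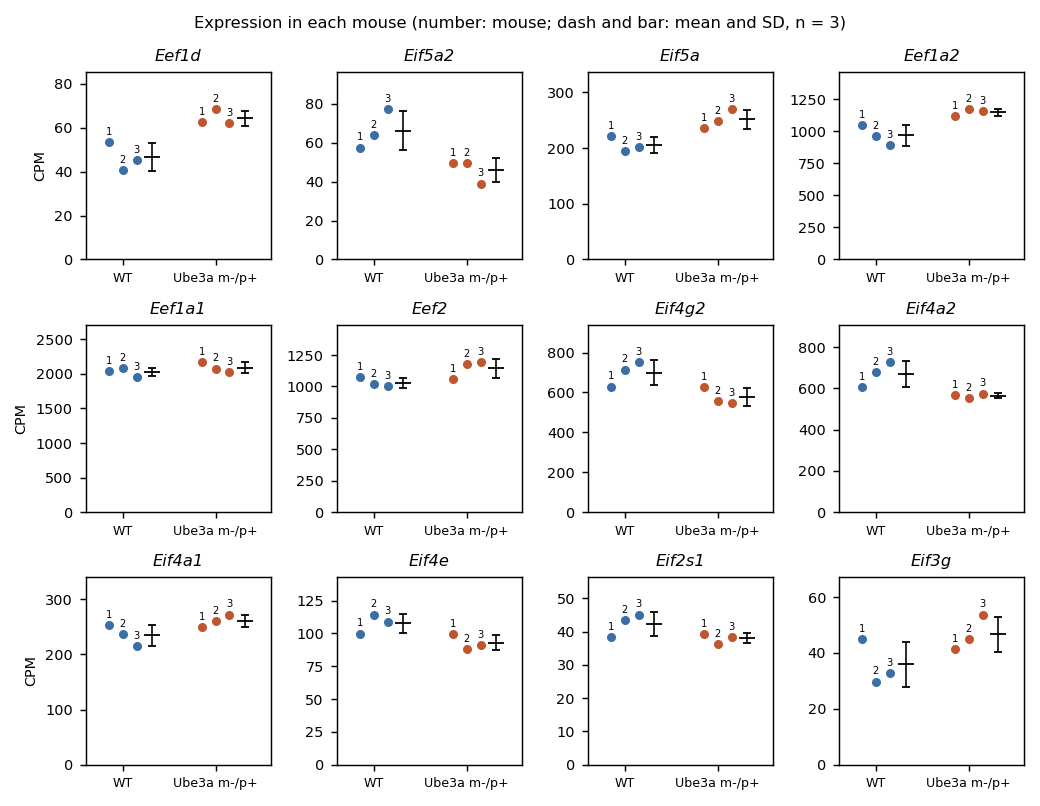
Expression in CPM (y axis, from 0) of 12 translation factor genes in each mouse, WT in blue and Ube3a m-/p+ in red (x axis), with the number of the mouse beside each point and the mean and SD (n = 3) in black. Eef1d, Eif5a, Eef1a2, Eif5a2, Eif4g2, Eif4a2 and Eif4e do not overlap between genotypes, while Eef1a1, Eef2, Eif4a1, Eif2s1 and Eif3g do.

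The cap-binding and helicase genes of eIF4F held no called member among 10 tested. An unadjusted p below 0.05 was found in 4 (40%, beside 24.6% of all genes tested). Eif4g2, encoding a relative of eIF4G that lacks the eIF4E-binding part (also known as DAP5), was the member of this group with the highest CPM. It was at 629.4, 714.0 and 752.1 CPM in WT mice against 627.8, 556.2 and 545.2 CPM in Ube3a m-/p+ mice. WT mouse 1 and Ube3a m-/p+ mouse 1 were nearly equal, and the log2 fold change was -0.26 (SE 0.09, adjusted p = 0.102), or -0.05 after the correction. Eif4g1, the main scaffold of eIF4F, was at 368.2, 324.5 and 332.8 CPM in WT mice against 369.6, 375.6 and 391.2 CPM in Ube3a m-/p+ mice. The genotypes did not overlap, although WT mouse 1 and Ube3a m-/p+ mouse 1 were nearly equal here too, with a log2 fold change of 0.17 (SE 0.08, adjusted p = 0.227), or 0.08 after the correction.

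The helicase eIF4A is encoded by Eif4a1 and Eif4a2. As counted, Eif4a2 was the higher, at 247.4 ± 22.8 CPM per kb beside 132.4 ± 10.6 for Eif4a1 in WT mice (SD, n = 3). Eif4a2 was at 604.7, 678.1 and 727.4 CPM in WT mice against 567.9, 552.5 and 575.0 CPM in Ube3a m-/p+ mice. All Ube3a m-/p+ mice lay below all WT mice, with a log2 fold change of -0.23 (SE 0.09, adjusted p = 0.125) that was 0.01 after the correction. Eif4a1 was at 252.8, 236.5 and 215.4 CPM in WT mice against 250.1, 260.3 and 272.1 CPM in Ube3a m-/p+ mice. These overlapped, and the log2 fold change was 0.17 (SE 0.09, adjusted p = 0.235), or 0.25 after the correction (adjusted p = 0.128). Of 50-base stretches, 65.3% in Eif4a1 and 12.7% in Eif4a2 occur in other genes. Part of the Eif4a1 reads may therefore not have been counted, and the order of the 2 genes per kilobase is uncertain. The related Eif4a3, the RNA helicase of the exon junction complex, was at 43.4, 46.3 and 44.4 CPM in WT mice against 40.8, 43.8 and 49.8 CPM in Ube3a m-/p+ mice, with a log2 fold change of 0.02 (SE 0.11), or -0.16 after the correction.

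The DEAD box, the motif that names this helicase family, lies in a stretch where both genes encode the same residues, and it is shown to set the codons of both genes side by side. Capitals mark the 5 of 48 bases that differ. For Eif4a1 (chromosome 11, 69666936 to 69672423, minus strand) the stretch runs from codon 176 to 191, and 57.5% of the third codon positions are G or C. For Eif4a2 (chromosome 16, 23107444 to 23114136, plus strand) it runs from codon 178 to 193, with 44.3%.
Eif4a1: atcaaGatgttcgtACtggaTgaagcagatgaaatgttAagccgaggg
Eif4a2: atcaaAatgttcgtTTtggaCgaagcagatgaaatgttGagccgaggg

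Eif4e, encoding the cap-binding protein itself, was at 99.9, 114.3 and 109.0 CPM in WT mice against 99.7, 88.3 and 91.2 CPM in Ube3a m-/p+ mice. WT mouse 1 and Ube3a m-/p+ mouse 1 differed by less than 1 CPM, and the log2 fold change was -0.20 (SE 0.09, adjusted p = 0.196), or 0.06 after the correction. Eif4b, which stimulates the helicase, was at 227.7, 209.0 and 212.1 CPM in WT mice against 234.0, 229.5 and 229.9 CPM in Ube3a m-/p+ mice. It did not overlap, with a log2 fold change of 0.11 (SE 0.08, adjusted p = 0.381), or 0.09 after the correction. The remaining members of this group, Eif4h, Eif4g3, Eif4e2 and Eif4e3, had log2 fold changes of 0.25, 0.01, 0.14 and -0.15, and only Eif4h, encoding another helicase cofactor, had an unadjusted p below 0.05. After the correction these 4 were at 0.10, -0.004, 0.14 and -0.04.

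The 4 genes whose products hold eIF4E away from eIF4G or in the nucleus were measured close to their WT level, with log2 fold changes from -0.01 to 0.02, or -0.20 to -0.015 after the correction (-0.04 for Eif4ebp2, -0.016 for Eif4ebp1 and -0.015 for Eif4enif1). Eif4ebp2, the 4E-BP known to prevail in brain, was at 23.4, 24.4 and 23.0 CPM in WT mice against 23.0, 21.3 and 25.8 CPM in Ube3a m-/p+ mice (log2 fold change 0.00, SE 0.12). Eif4ebp1 was at 1.77, 1.38 and 2.47 CPM in WT mice against 1.24, 1.94 and 2.19 CPM in Ube3a m-/p+ mice, and its SE of 0.37 on the log2 scale left a wide range. Per kilobase of transcript, Eif4ebp2 exceeded Eif4ebp1, at 4.09 ± 0.125 beside 0.938 ± 0.276 CPM per kb in WT mice (SD, n = 3). Eif4enif1, the nuclear import partner of eIF4E, had the highest CPM of the 4, at 55.8, 56.5 and 61.3 in WT mice against 63.0, 57.9 and 51.3 in Ube3a m-/p+ mice. All 4 overlapped between genotypes.

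**Figure D4:**
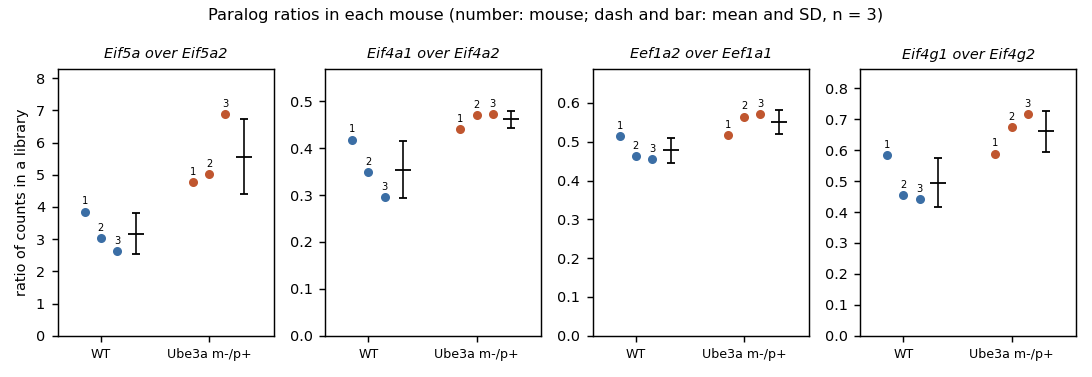
Ratio of the counts of 2 paralogs within a library (y axis, from 0) in each mouse, WT in blue and Ube3a m-/p+ in red (x axis), with the number of the mouse beside each point and the mean and SD (n = 3) in black. In each of the 4 pairs the Ube3a m-/p+ mice lie above the WT mice, and in 3 of the pairs WT mouse 1 and Ube3a m-/p+ mouse 1 lie close together.

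Ratios of paralogs within a library do not depend on library size, and in 4 pairs, chosen after the single values were seen, they did not overlap between genotypes. The ratio of Eif5a to Eif5a2 counts was 3.86, 3.03 and 2.62 in WT mice against 4.78, 5.01 and 6.90 in Ube3a m-/p+ mice. The ratio of Eif4a1 to Eif4a2 was 0.418, 0.349 and 0.296 in WT mice against 0.441, 0.471 and 0.473 in Ube3a m-/p+ mice. In both pairs the numerator is the paralog with the higher GC content, as it is in the next 2. Eef1a2 over Eef1a1 was 0.515, 0.464 and 0.456 in WT mice against 0.516, 0.565 and 0.572 in Ube3a m-/p+ mice. Eif4g1 over Eif4g2 was 0.585, 0.455 and 0.443 in WT mice against 0.589, 0.675 and 0.718 in Ube3a m-/p+ mice. Mice 1 of both genotypes had nearly the same ratio in these last 2 pairs. Since the pairs were chosen for their difference, they are given as a description with no test. Other genes share 65.3% of the 50-base stretches of Eif4a1 and 60.6% of those of Eef1a1. Reads without a unique alignment were listed apart from the genes, and their part in these ratios was not tested. The difference of the mean log2 ratios was 0.81, 0.40, 0.21 and 0.43 in the order given, and after the correction for GC content and length 0.30, 0.24, -0.08 and 0.13. In mice 1 alone the differences were 0.31, 0.08, 0.00 and 0.01. The ratio of Eif1b to Eif1 (53.8% and 50.9% GC) overlapped between genotypes at 0.281 to 0.395 in WT mice and 0.347 to 0.414 in Ube3a m-/p+ mice. Its difference of the mean log2 ratios was 0.176, close to that of Eef1a2 over Eef1a1. It was 0.085 after the correction and -0.187 in mice 1 alone. A single such pair was read, and the part of GC content in these ratios was not tested.

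The eIF2 genes and those of the factors that recycle or inhibit eIF2 held no called member. Eif2s1, encoding eIF2 alpha, the subunit phosphorylated in the integrated stress response, was at 38.3, 43.5 and 45.1 CPM in WT mice against 39.3, 36.3 and 38.4 CPM in Ube3a m-/p+ mice. These overlapped (log2 fold change -0.14, SE 0.10, adjusted p = 0.438), with 0.10 after the correction. Eif2s2, encoding eIF2 beta, was at 49.7, 63.1 and 73.2 CPM in WT mice against 51.3, 44.9 and 50.4 CPM in Ube3a m-/p+ mice. WT mouse 1 lay among the Ube3a m-/p+ mice, and the log2 fold change of -0.32 (SE 0.12, adjusted p = 0.125) was -0.03 after the correction and 0.05 in mice 1 alone. Eif2a and Eif2d, which encode alternative initiator tRNA carriers, had log2 fold changes of -0.06 and 0.02, or 0.19 and -0.03 after the correction.

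The guanine nucleotide exchange factor eIF2B, which reactivates eIF2 and is inhibited by its phosphorylated form, is built from 5 subunits, all tested. Eif2b2, encoding the beta subunit, was at 20.1, 20.5 and 18.1 CPM in WT mice against 20.97, 26.8 and 25.0 CPM in Ube3a m-/p+ mice. It was the subunit without overlap, with a log2 fold change of 0.33 (SE 0.13, adjusted p = 0.141), or 0.13 after the correction. Eif2b5, encoding the catalytic epsilon subunit, was at 42.2, 40.6 and 46.8 CPM in WT mice against 48.5, 46.6 and 44.9 CPM in Ube3a m-/p+ mice (log2 fold change 0.13, SE 0.10), and the estimate was 0.02 after the correction. Eif2b1, Eif2b3 and Eif2b4 overlapped between genotypes, with log2 fold changes of -0.14, 0.03 and 0.11, or -0.18, 0.10 and -0.11 after the correction.

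All 4 kinases of eIF2 alpha overlapped between genotypes, and none had an unadjusted p below 0.05. Eif2ak1, the heme-regulated kinase (HRI), was the most abundant of the 4 per kilobase, at 16.5 ± 0.468 CPM per kb in WT mice (SD, n = 3). It was at 71.2, 69.6 and 73.6 CPM in WT mice against 78.3, 73.6 and 70.9 CPM in Ube3a m-/p+ mice, with a log2 fold change of 0.07 (SE 0.09). Eif2ak4, encoding GCN2, the sensor of amino acid shortage, was at 35.2, 33.9 and 38.3 CPM in WT mice against 37.1, 33.8 and 31.1 CPM in Ube3a m-/p+ mice (log2 fold change -0.06, SE 0.11). Eif2ak3, encoding PERK, the sensor of the endoplasmic reticulum, was at 30.04, 27.6 and 26.7 CPM in WT mice against 29.8, 27.9 and 29.2 CPM in Ube3a m-/p+ mice (log2 fold change 0.06, SE 0.11). The lowest per kilobase, at 1.44 ± 0.201 CPM per kb in WT mice (SD, n = 3), was Eif2ak2, encoding PKR, the sensor of double-stranded RNA. It was at 7.19, 5.53 and 5.90 CPM in WT mice against 5.86, 4.68 and 4.85 CPM in Ube3a m-/p+ mice, and its log2 fold change of -0.26 (SE 0.22) had the largest error of the group. After the correction the log2 fold changes of Eif2ak1, Eif2ak2, Eif2ak3 and Eif2ak4 were 0.09, -0.11, 0.02 and -0.05. Kinase activity was not measured by these counts.

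The eIF3 complex bridges the small ribosomal subunit and eIF4G, and 12 of its 14 genes were tested, none of them called. Of these 12, 3 had an unadjusted p below 0.05 (25%, beside 24.6% of all genes tested), Eif3g and Eif3b higher and Eif3e lower. Eif3g, encoding an RNA-binding subunit, was at 45.0, 29.7 and 32.9 CPM in WT mice against 41.3, 45.1 and 53.7 CPM in Ube3a m-/p+ mice. Its genotypes overlapped through mice 1, and the log2 fold change of 0.40 (SE 0.15, adjusted p = 0.119) was 0.16 after the correction and -0.13 in mice 1 alone. Eif3b, a scaffold subunit, was at 89.9, 86.8 and 94.6 CPM in WT mice against 102.0, 97.8 and 113.6 CPM in Ube3a m-/p+ mice, without overlap (log2 fold change 0.23, SE 0.09, adjusted p = 0.142), and its estimate was 0.07 after the correction. Eif3e was at 75.7, 83.3 and 90.5 CPM in WT mice against 76.0, 59.8 and 69.6 CPM in Ube3a m-/p+ mice. Its longest transcript had the lowest GC content of all members, 36.2%. The log2 fold change of Eif3e, -0.26 (SE 0.11, adjusted p = 0.138), was 0.09 after the correction. Of its 50-base stretches, 22.0% occur in other genes.

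Eif3a, encoding the largest subunit, was at 188.3, 167.7 and 176.7 CPM in WT mice against 180.1, 178.6 and 179.9 CPM in Ube3a m-/p+ mice. These overlapped, with a log2 fold change of 0.03 (SE 0.08), or 0.19 after the correction (adjusted p = 0.251). Eif3c, the member of the complex with the highest CPM, was at 184.9, 183.7 and 203.2 CPM in WT mice against 188.7, 177.9 and 173.9 CPM in Ube3a m-/p+ mice (log2 fold change -0.06, SE 0.08), or -0.07 after the correction. The other tested subunits, Eif3d, Eif3f, Eif3h, Eif3i, Eif3k, Eif3l and Eif3m, lay between -0.12 and 0.19, or -0.10 and 0.14 after the correction, and Eif3h and Eif3k among them did not overlap between genotypes. Over the 12 subunits the median log2 fold change was 0.04, or 0.06 after the correction.

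Of the 7 genes for start codon selection and subunit joining, 3 had an unadjusted p below 0.05, all lower in Ube3a m-/p+ mice, and none was called. These 3 made up 42.9% of the group, beside 24.6% of all genes tested (12.4% lower). Their transcripts have 39.7% to 41.7% GC, in the class where the median of all genes was below 0 too. Eif1a, one of the genes for eIF1A, was at 37.5, 48.8 and 47.9 CPM in WT mice against 32.2, 37.4 and 37.0 CPM in Ube3a m-/p+ mice. The genotypes were separated by less than 0.1 CPM, and the log2 fold change of -0.31 (SE 0.12, adjusted p = 0.127) was -0.06 after the correction. Eif1ax, the X-linked gene for eIF1A, and Eif5, encoding the GTPase activator of eIF2, had log2 fold changes of -0.19 and -0.23, without overlap, and 0.09 and -0.01 after the correction. Eif1, which guards against initiation at wrong codons, had the highest CPM of the group, at 221.7, 242.4 and 254.1 in WT mice against 248.0, 235.9 and 242.3 in Ube3a m-/p+ mice. Its genotypes overlapped, with a log2 fold change of 0.03 (SE 0.08), or -0.08 after the correction.

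Genes that act on these factors but lie outside the symbol rule were read from lists of mTOR and MNK control, poly(A)-binding proteins, the integrated stress response, hypusine and diphthamide synthesis, termination and recycling, mitochondrial and selenocysteine factors, and RNA-binding repressors of neuronal translation. Of 62 such genes, 61 were tested and 1 was called (1.64%, beside 2.01% of all genes tested). The called gene was Rps6kb1, encoding the S6 kinase downstream of mTOR, and it fell. It was at 58.9, 69.1 and 68.4 CPM in WT mice against 49.9, 46.1 and 44.5 CPM in Ube3a m-/p+ mice, without overlap. The log2 fold change was -0.47 (SE 0.10, adjusted p = 0.0362 by edgeR), and -0.17 (adjusted p = 0.368) after the correction, with 39.2% GC in its transcript. Of the 61 genes, 4 were higher and 8 lower with an unadjusted p below 0.05, together 19.7% beside 24.6% of all genes. The median log2 fold change was 0.003, equal to that of all genes. By edgeR, 0 of these genes were called without WT mouse 2 or 3 or Ube3a m-/p+ mouse 2 or 3 (6 to 9 at an unadjusted p below 0.05). It called 13 without WT mouse 1, beside 17.6% of all genes, and 9 without Ube3a m-/p+ mouse 1, beside 12.5%.

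Next to Rps6kb1, the 4 smallest p values of these lists belonged to Cpeb4, Abce1, Fmr1 and Pum2. None of the 4 was called by edgeR, while DESeq2 called Cpeb4, Abce1 and Fmr1 (adjusted p = 0.0177, 0.0286 and 0.0457). Cpeb4, a cytoplasmic polyadenylation element-binding protein, was at 177.9, 178.7 and 204.4 CPM in WT mice against 155.6, 151.3 and 122.8 CPM in Ube3a m-/p+ mice (log2 fold change -0.37, adjusted p = 0.0557). Abce1, which splits ribosomes after termination, was at 105.2, 127.3 and 123.1 CPM in WT mice against 96.9, 86.3 and 93.7 CPM in Ube3a m-/p+ mice (log2 fold change -0.34, adjusted p = 0.0604). Fmr1, encoding the translational repressor lost in fragile X syndrome, was at 74.9, 88.3 and 91.9 CPM in WT mice against 74.0, 65.5 and 59.1 CPM in Ube3a m-/p+ mice (log2 fold change -0.34, adjusted p = 0.0717). These 3 genes did not overlap between genotypes, while Pum2, a further repressor, did (log2 fold change -0.29, adjusted p = 0.0839). Pum2 was at 203.5, 249.1 and 248.2 CPM in WT mice against 204.0, 188.5 and 173.5 CPM in Ube3a m-/p+ mice. After the correction the 4 log2 fold changes lay between -0.10 and -0.06.

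Markers of the tissue were read to check the label and the makeup of the libraries. All 5 markers of hippocampal neurons were tested, and their summed level was 833.4 to 901.1 CPM in WT mice and 722.4 to 823.2 CPM in Ube3a m-/p+ mice. Of these 5, 1 was higher and 4 were lower. The sums did not overlap between genotypes, like those of the 4 general neuronal markers given above. Of those 4, 1 was higher and 2 were lower with an unadjusted p below 0.05. In each of these lists edgeR called 0 markers and DESeq2 called 1, which was lower in Ube3a m-/p+ mice. Markers of the choroid plexus summed to 598.8, 98.6 and 2148 CPM in WT mice against 2241, 1588 and 104.2 CPM in Ube3a m-/p+ mice, a spread within each genotype that overlapped between them. Those of the meninges summed to 81.7 to 137.2 and 84.1 to 159.9 CPM, with 1 of 5 called by edgeR and by DESeq2, astrocytes to 1199 to 1317 and 1173 to 1251 CPM, and endothelial cells to 154.9 to 174.1 and 156.6 to 168.4 CPM, with 1 endothelial marker called higher by DESeq2. Oligodendrocyte markers summed to 6183 to 6300 CPM in WT mice and 5211 to 5953 CPM in Ube3a m-/p+ mice, and microglial markers to 217.8 to 236.4 and 195.9 to 209.6 CPM, both without overlap and each with 1 of 4 markers called lower by DESeq2 and 0 by edgeR. After the correction the median log2 fold change was 0.01 for neuronal, -0.10 for hippocampal neuron, -0.05 for astrocyte and -0.07 for oligodendrocyte markers. It was -0.17 for microglial, -0.015 for endothelial, 0.42 for meningeal and 0.51 for choroid plexus markers. The part of these markers in the values of the translation factor genes was not tested.

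The 8 remaining members were not tested for want of counts. Eif3j1, Eif3j2, Eif4e1b and Eef1akmt4-ece2 were listed at 0 in all 6 libraries, Eif2c5 and Eif4a3l1 had 1 count each over all libraries, Eef1akmt3 had 5 and Eef1akmt4 had 28. Eif3j1 and Eif3j2 both encode eIF3j, a loosely bound eIF3 subunit. Of 50-base stretches, 90.8% of those in Eif3j2 occur in Eif3j1 and 39.4% of those in Eif3j1 occur in Eif3j2, and reads with more than 1 alignment were listed apart from the genes. The part of this, or of the annotation used for counting, in their counts of 0 was not tested. Eif4e1b, an eIF4E relative known from oocytes, shared 5.4% of its stretches with another gene. Eif2c5 met the symbol rule by an older name of an Argonaute-like gene, and it and the readthrough Eef1akmt4-ece2 were placed in no role group.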

How the data were processed

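Hippocampal mRNA of 3 WT and 3 Ube3a m-/p+ mice was sequenced. The authors deposited raw counts per gene symbol, without normalization, in the layout of HTSeq. STAR 2.7.4a, HTSeq and mm10 are named in the submitters' processing notes, and the annotation and strand setting are not given in the sources used here. Replicates were separate mice by label. Genes were kept by filterByExpr, scaled by TMM and tested by edgeR 4.0.16 (quasi-likelihood, robust, two-sided, R 4.3.3) with Benjamini-Hochberg adjustment over 14445 genes, 62 of 70 members among them. DESeq2 1.42.0, other scalings and filters, the replicate block and leaving out each mouse were alternatives. For the correction, each library was fitted with natural splines (5 degrees of freedom) on 2 properties of a gene's longest transcript in GENCODE M21 (GRCm38), its GC content and its length, which 99.2% of tested genes had. It removes any difference that goes with these properties, whatever its source. Per-kilobase levels used the longest coding transcript, which in some members was shorter than the longest transcript used for the correction. It had 1774 against 3167 bases in Eif4a1, 2299 against 3432 in Eif2a and 1506 against 4123 in Eif3e. The edgeR, DESeq2, block and correction steps were tested on simulated data. Members and gene lists were chosen with earlier results of these data known. Values per mouse are given for a fixed set of members, those called, the 5 largest rises and falls with an unadjusted p below 0.05 and the member of highest CPM in each role group, and, outside the rule, for Ube3a and the 5 pathway genes of smallest p. Others are named for their counts or after their values were seen. With 7293272 to 11314409 counts per library, counting error limits the lowest members. Shared 50-base stretches also made up 65.5% in Eif4ebp3, 40.0% in Eif3m, 31.6% in Eif1 and 27.8% in Eif2s2, among others. Reads without a unique alignment were 4.15%, 5.61% and 5.77% of listed reads in WT mice 1, 2 and 3. In Ube3a m-/p+ mice 1, 2 and 3 they were 4.06%, 3.71% and 3.77%. Their part in the values of these members was not tested.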

Additional observations from a re-analysis of the deposited data

How the results depend on the processing

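Under library size only, upper-quartile factors and a minimum of 10 counts in every library, the count of called members stayed at 2, and it was 3 with no filter. DESeq2 gave 4, an unadjusted p with the same fold gave 10, and the GC and length correction gave 1, with and without the replicate block. Deviations of same-numbered mice from the mean of their genotype had correlations of -0.29, -0.18 and -0.31. The relation to GC content ran in opposite directions in WT and Ube3a m-/p+ mice 2 and 3. These correlations therefore cannot decide whether the numbers pair the mice. With the replicate block 0 members were called by edgeR (10 at an unadjusted p below 0.05) and 0 pathway genes (9 at an unadjusted p below 0.05), and Ube3a was at -0.57 (adjusted p = 0.216). Leaving out a mouse gave 0 to 11 called members, 0 to 13 pathway genes, a median of 0.027 to 0.057 over the members and -0.73 to -0.48 for Ube3a. Pathway genes called were 4 by DESeq2, beside 6.69% of all genes, 7 with no filter and 10 at an unadjusted p with the same fold. The counts with no filter and at an unadjusted p again have no share of all genes beside them. After the correction 0 were called, with or without the block (3 and 2 at an unadjusted p below 0.05). Without the block, 0.649% of the genes with a GC value were called in that fit. Ube3a was at -0.20 after the correction and -0.19 with the block added. The median of the members was -0.003 in mice 1 alone, a comparison of 1 library per genotype chosen after seeing the data. Of the 62 tested members, the direction turned in 18 after the correction, with and without the block, and in 27 in mice 1 alone. Values are given for the set of members chosen by the naming rule or with an unadjusted p below 0.05. In this set the direction turned after the correction, without and with the block, in Eef1a2 (-0.013 and -0.014), Eef2 (-0.016 and -0.017), Eif1 (-0.079 and -0.078), Eif1ax (0.087 in both), Eif2s1 (0.096 and 0.095), Eif3e (0.088 and 0.085), Eif4a2 (0.012 and 0.011), Eif4a3 (-0.160 and -0.164), Eif4e (0.060 and 0.061) and Eif4enif1 (-0.015 and -0.017). The other 8 were Eef1g, Eif2a, Eif2b4, Eif2d, Eif3m, Eif4ebp3, Eif4g3 and Eif5b. In mice 1 alone the direction turned in this set in Eef2 (-0.022), Eif2ak3 (-0.013), Eif2ak4 (0.075), Eif2s1 (0.039), Eif2s2 (0.045), Eif3a (-0.064), Eif3c (0.029), Eif3e (0.005), Eif3g (-0.125), Eif4a1 (-0.015), Eif4a3 (-0.087), Eif4h (-0.101) and Eif6 (-0.090). The other 14 were Eef1g, Eef2kmt, Eif1ad, Eif1b, Eif2a, Eif2b4, Eif2d, Eif3f, Eif3i, Eif3m, Eif4e2, Eif4e3, Eif4ebp3 and Eif4g3. With library size only the direction turned in this set in Eif4enif1 (-0.012). Leaving out a mouse turned, of the same set, Eif1 (-0.016 to 0.073), Eif3a (-0.005 to 0.081), Eif4a3 (-0.068 to 0.094), Eif4ebp1 (-0.195 to 0.213) and Eif4enif1 (-0.053 to 0.074). Eif4ebp2, at 0.00, was given no direction. Among called genes of the whole transcriptome, 50.7% were higher by TMM and 42.1% by library size only. The cause of these changes was not tested, beyond the smaller number of mice where 1 was left out.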
